A study of Mus musculus with 16 samples.

Results

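Immediate early genes are genes whose transcription rises within minutes of synaptic activity and needs no new protein. In this series they were taken as a list of 36 named genes, matched by gene symbol to transcript-level RNA-seq estimates from the CA1 subfield of the mouse hippocampus. All 36 were found among the 46403 gene symbols measured, and each symbol stood for a single gene. For description they were ordered by role into 20 transcription factors and regulators, 10 signalling and stress feedback genes, and 6 secreted and synaptic effectors. The series compared 8 mice labelled Fmr1-KO with 8 wild-type (WT) mice labelled C57BL/6. Fmr1 encodes the RNA-binding protein FMRP and is silenced in fragile X syndrome. Every mouse, of both genotypes, had served as a yoked control in active place avoidance, and no untrained or cage-housed group was among these samples. The labels give no age, no sex and no time between the session and tissue collection, and are silent on whether the genotypes shared litters. Each library carries a number and a letter, B or D, taken here to mark 1 mouse. The labels do not explain the letters or state that each library is a separate animal, so p-values measure the spread between these libraries. Fmr1-KO numbers ran from 116 to 120 and WT numbers from 122 to 126, so genotype and number series cannot be told apart.

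In hippocampal neurons, calcium entry through synaptic receptors and channels activates kinases that phosphorylate factors already bound at these genes, including CREB and serum response factor. The first products include transcription factors (the Fos, Jun, Egr and Nr4a families and Npas4), which then act on later genes, and effectors such as Arc that act directly at synapses. A further group, including the Dusp phosphatases, switches the signal off again, so transcript levels rise and decay within hours.

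Depth was low and uneven. Summed estimated counts ranged from 515103 to 3275003 per library, and WT replicates 3 and 6, both letter B, held 878484 and 515103. In those libraries the 10 largest genes took 10.35% and 31.59% of counts, against 3.73% to 6.06% in the other 14. WT replicate 3 also had the highest summed astrocyte (4966 CPM, counts scaled to library size), microglial (501 CPM) and endothelial (381 CPM) markers. CA1 pyramidal markers ran from 6099 to 8521 CPM over all libraries, and Camk2a alone had a median of 3948 CPM. CA3 pyramidal markers ran from 576 to 790 CPM, CA2 from 125 to 185 CPM and dentate granule from 136 to 235 CPM. Each of these sums came mostly from 1 gene, with medians of 617 CPM for Nptx1 (CA3), 138 CPM for Rgs14 (CA2) and 145 CPM for Lct (dentate). Every other gene on those lists had a median of 24.1 CPM (Homer3) or less, so the sums do not measure the content of these subfields. Choroid plexus and ependyma markers ran from 1.35 to 8.78 CPM in Fmr1-KO and from 0 to 2.34 CPM in WT. Of that list Folr1 and Tmem212 were at 0 throughout, and Foxj1 reached 7.43 CPM. Fmr1 lay between 8.44 and 32.0 CPM in Fmr1-KO libraries, all under the WT range of 39.6 to 99.7 CPM (log2 fold change -1.41 ± 0.22, SE, edgeR adjusted p = 0.0112), in the direction of the labels. In whole tissue, fewer cells of a type and less RNA per cell cannot be told apart.

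Members whose levels moved together across mice were set beside the sequence before their transcription starts. RefSeq windows (GRCm38.p6) of 250 bases before to 50 bases after the start were held for 27 of the 36 members, 37 windows in all, because Bdnf has 7 and Egr2 has 5. For Arc, Egr1, Egr3, Crem, Trib1, Ier2, Nptx2, Klf10 and Sik1 no window was used. Both strands were searched for 6 motifs. These were the cyclic AMP response element (CRE, TGACGTCA), the CRE core (TGACG, which each CRE holds on both strands), AP-1 (TGANTCA), EGR (GCGNGGGCG), the TATA box (TATAAA) and the CArG box bound by serum response factor.

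The 250 bases before the start are shown for 7 members, chosen after the matches were seen. Following Arc means passing a permutation test adjusted over the members alone. With adjustment over all genes tested, Npas4 and Plk2 did not pass. Members that followed Arc across mice (Fos, Npas4, Nr4a1, Dusp1 and Plk2) stand beside members that did not (Ier5 and Atf3). Each is written 5′ to 3′ on the strand of its gene, with CRE, CRE core and TATA matches in capitals. The windows lie at chr12:85473640-85473889 (plus strand, Fos), chr19:4989972-4990221 (minus, Npas4), chr15:101266596-101266845 (plus, Nr4a1), chr17:26508473-26508722 (minus, Dusp1), chr13:110394794-110395043 (plus, Plk2), chr1:155099637-155099886 (minus, Ier5) and chr1:191183334-191183583 (minus, Atf3).
Fos: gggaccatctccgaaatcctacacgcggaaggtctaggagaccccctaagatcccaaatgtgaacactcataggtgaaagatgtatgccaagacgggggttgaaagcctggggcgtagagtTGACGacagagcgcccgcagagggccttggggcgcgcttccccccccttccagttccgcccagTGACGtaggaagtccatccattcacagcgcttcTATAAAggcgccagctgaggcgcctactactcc
Npas4: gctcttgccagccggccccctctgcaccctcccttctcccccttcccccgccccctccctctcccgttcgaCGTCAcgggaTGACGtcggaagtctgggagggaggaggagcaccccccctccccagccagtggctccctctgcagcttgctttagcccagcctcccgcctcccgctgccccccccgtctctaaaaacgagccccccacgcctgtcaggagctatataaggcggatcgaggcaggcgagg
Nr4a1: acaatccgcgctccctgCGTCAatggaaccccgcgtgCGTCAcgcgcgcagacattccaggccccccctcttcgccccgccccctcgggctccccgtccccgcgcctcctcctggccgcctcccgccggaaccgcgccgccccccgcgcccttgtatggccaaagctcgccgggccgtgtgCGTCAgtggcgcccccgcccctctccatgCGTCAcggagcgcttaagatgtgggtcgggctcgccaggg
Dusp1: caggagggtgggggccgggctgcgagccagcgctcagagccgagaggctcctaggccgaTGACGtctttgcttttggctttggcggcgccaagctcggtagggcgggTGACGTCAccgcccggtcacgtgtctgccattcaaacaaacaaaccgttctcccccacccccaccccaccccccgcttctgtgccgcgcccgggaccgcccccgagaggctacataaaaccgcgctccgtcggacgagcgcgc
Plk2: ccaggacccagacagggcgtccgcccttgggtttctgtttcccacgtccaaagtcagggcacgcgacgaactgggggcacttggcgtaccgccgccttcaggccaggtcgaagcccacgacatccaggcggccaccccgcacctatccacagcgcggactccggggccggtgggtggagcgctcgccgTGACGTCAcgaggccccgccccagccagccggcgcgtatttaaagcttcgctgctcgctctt
Ier5: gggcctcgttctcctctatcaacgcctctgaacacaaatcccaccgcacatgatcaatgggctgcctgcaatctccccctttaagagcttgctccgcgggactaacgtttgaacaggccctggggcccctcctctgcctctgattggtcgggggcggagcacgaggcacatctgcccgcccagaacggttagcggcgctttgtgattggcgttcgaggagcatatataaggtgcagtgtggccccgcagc
Atf3: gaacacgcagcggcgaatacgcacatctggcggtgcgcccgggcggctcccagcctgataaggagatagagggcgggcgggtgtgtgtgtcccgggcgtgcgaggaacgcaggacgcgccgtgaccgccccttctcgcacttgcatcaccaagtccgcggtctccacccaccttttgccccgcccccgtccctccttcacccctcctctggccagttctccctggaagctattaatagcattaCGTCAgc

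Fos held CRE cores that began 129 and 66 bases before the start and a TATA match at 33 bases. In Npas4 the matches began at 179 and 169 bases, on opposite strands. Nr4a1 held 4, at 233, 213, 69 and 40 bases. Dusp1 held a full CRE at 143 bases and a further CRE core at 191, and Plk2 a full CRE at 62 bases with another CRE core 22 bases into the transcript, beyond the stretch shown. Ier5 had no match to the 6 motifs in its window, and Atf3 had 1 CRE core, at 7 bases.

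Across the 27 members, 19 had a CRE core in at least 1 window. By window, 21 of 37 member windows held one, against 20.8% of all 32851 windows in the table. A full CRE was found in 4 members (Arl4d, Btg2, Dusp1 and Plk2), against 1.79% of all windows. EGR matches were found in 7 members (5.55% of all windows), TATA in 6 (13.6%), CArG in 2, Dusp5 and Egr2 (1.63%), and AP-1 in 1, Bdnf (7.81%). Members with several windows had more chances of a match. Of the 16 members with a window that followed Arc, 14 held a CRE core, as did 5 of the other 11, of which Inhba was not tested with Arc. The counts were 14 of 18 and 5 of 9 without WT replicates 3 and 6, where Jun and Jund also followed Arc. This split was made after the matches were seen. Member windows had a median GC content of 60%, against 52.7% over all windows, and the members that followed Arc had 65.8% against 58% in the others; the part of base composition in these counts was not tested. These matches describe letters in the window and do not show binding.

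Levels spanned a wide range. On the TPM scale, which corrects for transcript length and depth, Arc, whose product shapes AMPA receptor endocytosis at synapses, had the highest median over the 16 mice at 577 TPM. The transcription factors Egr1 at 549 TPM and Nr4a1 at 384 TPM came next, then the polo-like kinase Plk2 at 374 TPM and Junb at 360 TPM. Fos stood at 305 TPM and Npas4 at 216 TPM. At the low end were Atf3 at 13.8, the prostaglandin synthase Ptgs2 at 8.37 and Inhba, which encodes an activin subunit, at 3.02 TPM. Ranges of neighbours in this order overlapped widely: Fos alone ran from 35.7 to 747 TPM across mice. Its lowest value was 119 TPM without the shallow WT replicates 3 and 6, and on the CPM scale it ran from 216 to 711. On log2(TPM + 1), 81.4% of all genes rose and fell with Arc across libraries (adjusted test below). Overlapping TPM ranges therefore do not show that neighbours change order within a mouse. Within Bdnf, the neurotrophin gene with several promoters, the transcript Bdnf-007 took 67.7% of counts, and the 2 Arc transcripts, of 3054 and 3055 bases, cannot be separated with confidence.

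Mice differed from one another in these genes much more than counting alone gives. Fos, the AP-1 subunit most used to mark active neurons, had its lowest value at 216 CPM in WT replicate 5 and its highest at 711 CPM in WT replicate 4, a 3.28-fold range. Npas4, a factor induced by calcium entry in neurons, ranged from 45.6 CPM in the shallow WT replicate 3 (38 counts) to 1054 CPM in WT replicate 4, a 23.1-fold range. Its lowest value among the 14 deeper libraries was 77.2 CPM in WT replicate 8, a 13.7-fold range. Arc ranged from 521 CPM in Fmr1-KO replicate 1 to 1930 CPM in WT replicate 4. WT replicate 4 held the highest level of all 16 mice for 8 members, Fmr1-KO replicate 7 for 8 and Fmr1-KO replicate 3 for 7, so these 3 mice accounted for the top level of 23 of 36 members. For 15 members they took all of the 3 highest ranks. Fmr1-KO replicate 1 was the lowest of the 14 deeper libraries for 12 members, including Arc, Egr1, Egr2, Egr4, Junb and Plk2.

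**Figure D1:**
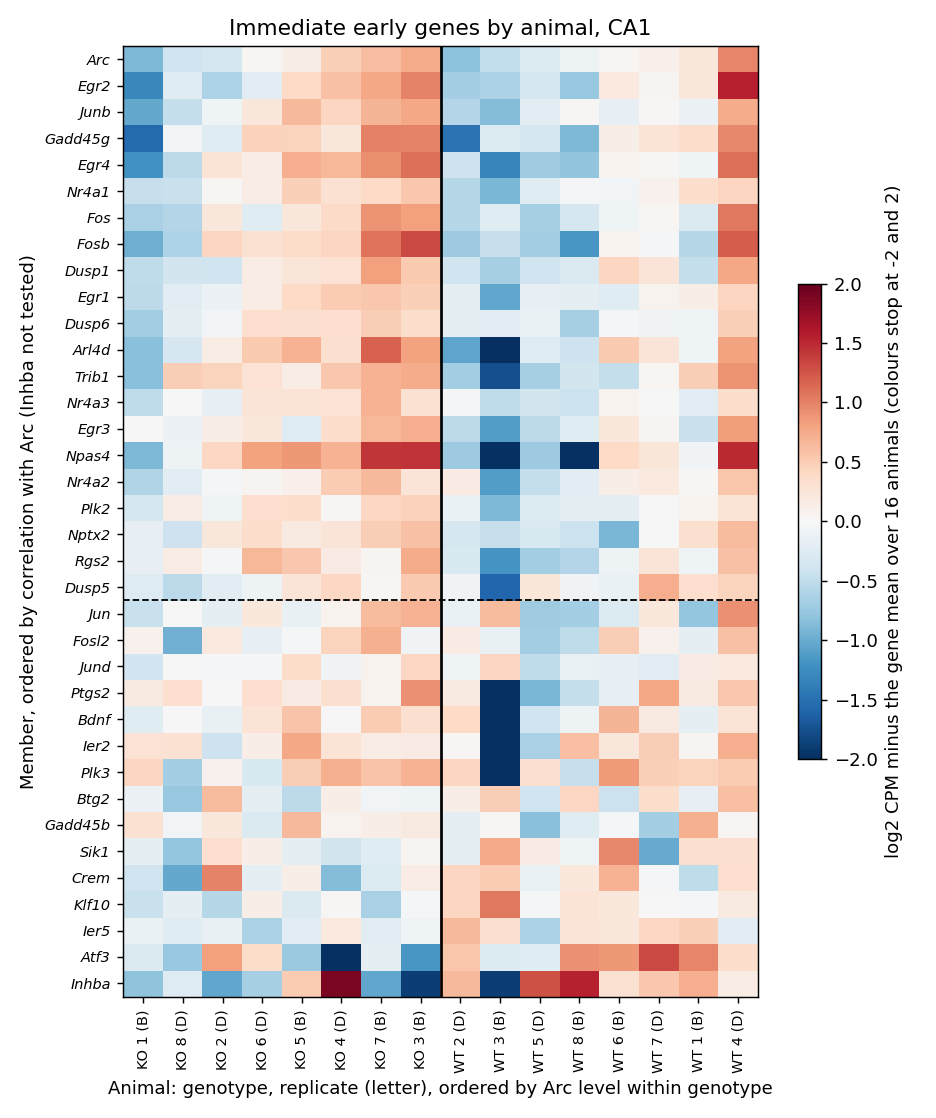
Level of each of the 36 members (vertical axis, ordered by correlation with Arc) in each of the 16 mice (horizontal axis, ordered by Arc level within genotype, letter in brackets). Colour is log2 CPM minus the gene's mean over all mice. The dashed line separates the 20 members that follow Arc (permutation test adjusted over the members alone), with Arc, from the rest. Fmr1-KO replicates 3 and 7 and WT replicate 4 are red in most of the upper rows, and Fmr1-KO replicate 1 is blue.

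The spread was put on one scale with edgeR's gene-wise biological coefficient of variation (BCV), the variation between mice of the same genotype beyond counting. For Npas4 the BCV was 71.8%, 3.51 times the trend for genes of its abundance, the highest ratio in the list. Fosb, Egr4 and Egr2 followed at 2.57, 2.52 and 2.49 times the trend, and Fos stood at 1.99. Of the 35 members tested, 30 lay above the trend, against 29.8% of all 11515 genes tested. The median ratio was 1.48 for members and 0.819 over all genes. The other 5 lay below it: Plk2 stood at 0.999 times the trend, Jund at 0.947, the stress gene Gadd45b at 0.834, the cAMP-responsive factor Crem at 0.729 and Klf10, a TGF-beta-inducible repressor, at 0.688. By role, 17 of 20 transcription factors and regulators, 8 of 10 feedback genes and 5 of 5 effectors tested lay above the trend. Without WT replicates 3 and 6 the count was 34 of 36, against 35.0% of all genes tested.

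**Figure D2:**
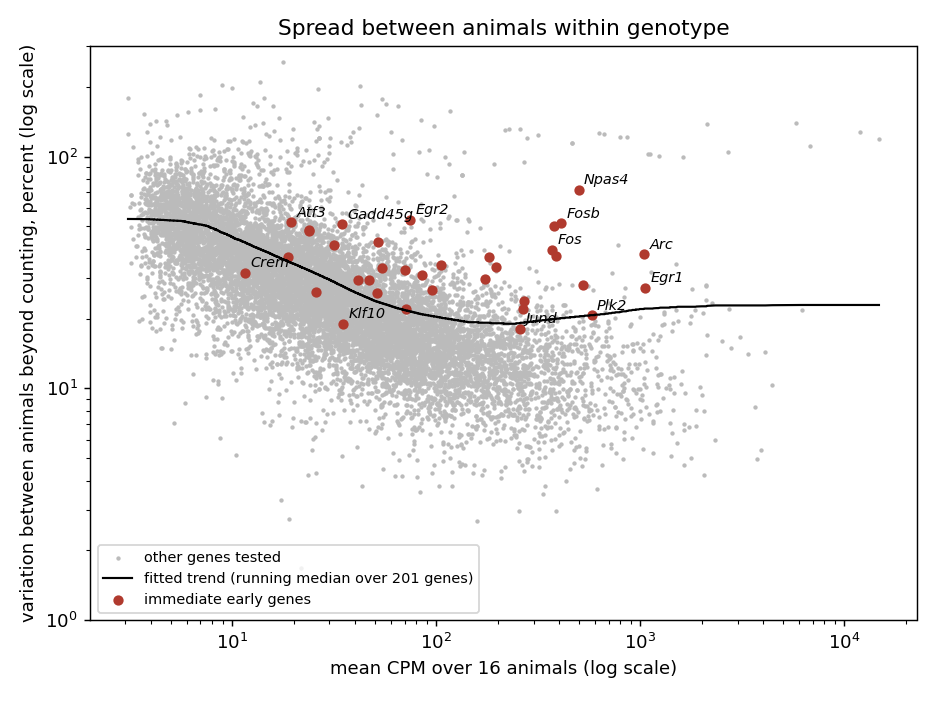
Variation between mice of the same genotype beyond counting (BCV, percent, log axis) against mean CPM over 16 mice (log axis). Red points are members, grey points the other genes tested (28 genes at or below 1% are not drawn), and the line is the trend fitted for genes of each abundance. Npas4 at 71.8% stands highest among the members, and 30 of 35 members lie above the trend.

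The members moved together across mice. With each genotype's mean removed, Pearson's r over log2 CPM had a median of 0.45 over the 595 pairs of tested members, against 0.01 over all pairs of genes tested. Of member pairs 46.9% exceeded 0.5, against 9.25% of all pairs. Without WT replicates 3 and 6 the median was 0.50, and 49.9% of member pairs exceeded 0.5, against 5.9% of all pairs. Within Fmr1-KO the median was 0.49 and within WT 0.48, 8 mice each. These correlations share libraries and depth and are given as a description. Transcription factors with each other had a median r of 0.37, transcription factors with effectors 0.51, and feedback genes with effectors 0.63. The members with the highest median r to the rest were Egr4 (0.76), Npas4 (0.74), Nr4a2 (0.72), Arl4d (0.72) and Arc (0.72), and the lowest was Klf10 at -0.19. Klf10 stood at 0.06 without WT replicates 3 and 6, where Atf3 was lowest at -0.08.

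Averages by role were compared across mice as deviations from the mean over all mice. Genotype means were not removed here, so any difference between genotypes is part of these values and of the order of mice. On this scale the same 3 mice stood highest in each class. WT replicate 4 stood at 0.67 for transcription factors and regulators, 0.53 for feedback genes and 0.65 for effectors on the log2 scale. Fmr1-KO replicate 3 stood at 0.44, 0.52 and 0.67, and Fmr1-KO replicate 7 at 0.45, 0.40 and 0.57. Fmr1-KO replicate 1 was low in all 3 classes at -0.50, -0.38 and -0.39. WT replicate 5 stood at -0.46, -0.26 and -0.43, and for feedback genes WT replicates 8 (-0.38) and 2 (-0.32) were lower than it. In WT replicate 3, a shallow library, the values were -0.57, -1.04 and -1.56, with effectors lowest. That effector value rested in part on very few counts: Ptgs2 had 2, Arl4d 3 and Bdnf 9 in this library. Arc stood there at 695 CPM and Nptx2 at 66.0 CPM.

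Arc served as the anchor for a test of covariation. Every other gene tested was correlated with it over 16 mice, by a two-sided permutation test with 100000 resamples. At an unadjusted p of 0.05 with r above 0, 21 of 34 members passed, against 2.64% of all 11514 genes. With Benjamini-Hochberg adjustment over all these genes, 7 passed, 0.0608% of those tested, and all 7 were members: Egr2, Junb, Gadd45g, Egr4, Nr4a1, Fos and Dusp1. By Spearman's rho 5 genes passed (0.0434%), again all members. Without WT replicates 3 and 6, 22 of 34 members passed unadjusted, against 3.65% of all genes. After adjustment over all genes 9 members passed, among 16 genes with r above 0 (0.139%), with Egr1 and Arl4d added to the 7. On log2(TPM + 1) 33 members passed, but so did 81.4% of all genes. This comparison with all genes was added after the data were seen.

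The planned count adjusted over the 34 members' relations alone. The 20 that passed there, all with r above 0, are the members said here to follow Arc. They were 11 of 20 transcription factors and regulators, 7 of 10 feedback genes and 2 of 4 effectors. By Spearman's rho 20 also passed, and without WT replicates 3 and 6 there were 22, the same 20 with Jun and Jund added. Leaving out the 2 mice farthest from the median of Arc, WT replicate 4 and Fmr1-KO replicate 1, r was above 0.5 for 19 members. With adjustment over all genes tested, only 7 of the 20 passed, as given above. In the rest of the 20 that adjusted permutation p ran from 0.0691 for Fosb and Egr1 to 0.988 for Dusp5. It was 0.355 for Npas4 and 0.474 for Plk2.

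Among the transcription factors, Egr2, a zinc-finger factor of the Egr family, was closest to Arc (r = 0.94, permutation p = 1e-05, the smallest that these permutations can give, p adjusted over all genes 0.023; rho = 0.91, permutation p = 1e-05, adjusted 0.023). Without the 2 farthest mice its r was 0.88, and within genotype it was 0.97 in Fmr1-KO and 0.91 in WT. Junb had r = 0.92 and rho = 0.91, with the same permutation p and adjusted p for both, and r = 0.85 without the 2 farthest mice. Egr4 (r = 0.88), Nr4a1 (0.87), Fos (0.87), Fosb (0.84) and Egr1 (0.83) followed. Nr4a3 (0.78), Egr3 (0.75), Npas4 (0.74) and Nr4a2 (0.72) completed the class. Npas4 was tied to Arc in Fmr1-KO (r = 0.94) and in WT (r = 0.69), and its r was 0.54 without the 2 farthest mice; the difference between genotypes was not tested.

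Among the feedback genes, the growth-arrest gene Gadd45g was closest to Arc (r = 0.90, permutation p = 1e-05, p adjusted over all genes 0.023; rho = 0.90, permutation p = 1e-05, adjusted 0.023), and its r was 0.82 without the 2 farthest mice. It was followed by the MAP kinase phosphatases Dusp1 (r = 0.84) and Dusp6 (0.80), the pseudokinase Trib1 (0.78), Plk2 (0.72), the G-protein regulator Rgs2 (0.65) and Dusp5 (0.58). Without the 2 farthest mice r was 0.75 for Dusp1, 0.57 for Dusp6, 0.55 for Trib1, 0.51 for Plk2, 0.44 for Rgs2 and 0.58 for Dusp5. Apart from that of Dusp5, these relations rested in part on those mice. Among the effectors, the small GTPase gene Arl4d (r = 0.80) and Nptx2, a pentraxin that clusters AMPA receptors (r = 0.71), followed Arc.

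The other 14 members did not pass the count over the members alone. Jun had r = 0.52 (permutation p = 0.0404, p adjusted over all genes 0.988; rho = 0.42, permutation p = 0.108, adjusted 0.995), and 0.15 without the 2 farthest mice. Fosl2 and Jund had r = 0.43, Ptgs2 0.41, Bdnf 0.38, Ier2 0.35 and Plk3 0.34. The antiproliferative gene Btg2 (0.15), Gadd45b (0.13) and the salt-inducible kinase Sik1 (0.06) lay near 0. Crem (-0.06), Klf10 (-0.12), Ier5 (-0.15) and the stress factor Atf3 (-0.19) had r below 0, and without WT replicates 3 and 6 Klf10 had 0.07. Inhba, with at most 25 counts in any library, was not in this test.

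**Figure D3:**
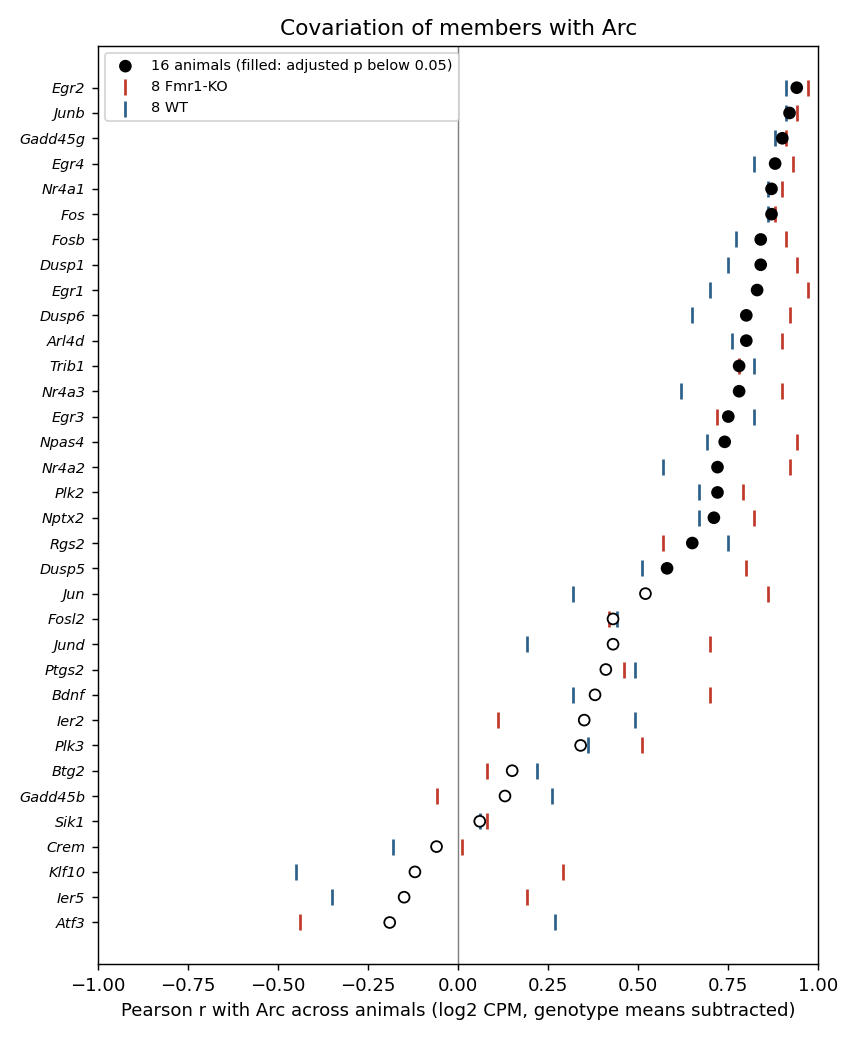
Pearson r of each of 34 members with Arc (horizontal axis; log2 CPM with genotype means removed), over 16 mice (circles, filled where the permutation p adjusted over the members alone was below 0.05) and within the 8 Fmr1-KO and the 8 WT mice (red and blue ticks). The 20 filled circles run from 0.58 for Dusp5 to 0.94 for Egr2.

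Arc was also set against 13 library measures: 3 of depth and composition and 10 marker lists. None passed adjustment. Against log2 total counts, r was 0.19 (permutation p = 0.482, adjusted p = 0.898; rho = 0.24, permutation p = 0.375, adjusted p = 0.967; r = 0.10 without the 2 farthest mice). The lowest unadjusted p was for the 8 microglial markers, all tested (r = -0.54, permutation p = 0.0288, adjusted p = 0.375; rho = -0.62, permutation p = 0.0124, adjusted p = 0.161). For microglia r was -0.50 without the 2 farthest mice and -0.61 without WT replicates 3 and 6. The dentate granule sum, mostly Lct, had r = 0.17 over 16 mice (permutation p = 0.535, adjusted p = 0.898; rho = 0.36, permutation p = 0.165, adjusted p = 0.797). Its r was 0.54 without the 2 farthest mice. Summed microglial markers ranged from 154 to 274 CPM in Fmr1-KO and from 197 to 501 CPM in WT (to 272 CPM without WT replicates 3 and 6), and their part in the members' covariation was not tested.

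Genes outside the list were ranked by likeness to the mean of the 20 transcription factors and regulators, over the 14 deeper libraries, as a description. The nearest were the heat-shock co-chaperones Dnajb1 (r = 0.95, and 0.88 over all 16) and Dnaja1 (0.94 and 0.90). Next came 1700086L19Rik (0.93 and 0.70), Errfi1, an inhibitor of the EGF receptor (0.91 and 0.87), Ppp1r15a, the GADD34 phosphatase subunit (0.87 and 0.72), and the zinc transporter Slc30a1 (0.87 and 0.47). Arl5b, Ing2, Gm28062 and Tob1 each had 0.86. Of 11480 other genes, 5.02% exceeded 0.5. Dnajb1 ranged from 55.3 to 170 CPM and Dnaja1 from 211 to 502 CPM across mice.

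Of 16 other activity-regulated genes tested, 5 exceeded 0.5 by the same measure: Per1 (0.83), Tiparp (0.82), the scaffold gene Homer1 (0.78), Rheb (0.69) and Fbxo33 (0.65). Their median was 0.39. Of 30 genes for upstream kinases, phosphatases and factors, Mef2c (0.63) and Srf (0.58) exceeded 0.5 and the median was 0.13; over all 16 libraries Mef2c and Srf had 0.25 and 0.03.

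The genotype comparison asked whether loss of Fmr1 changed these transcripts. No member passed: edgeR's quasi-likelihood test with Benjamini-Hochberg adjustment over all 11515 genes tested called 0 of 35 members at 0.05, and 2 genes in all, 0.0174% of those tested. DESeq2 also called 0 members, and 0.0955% of all genes. At an unadjusted p of 0.05, 6 of 35 members (17.1%) differed in both tools, against 7.89% of all genes in edgeR and 9.12% in DESeq2. Members above and below WT were 28 and 7 (80.0% above), against 48.1% of all genes above. The median log2 fold change, Fmr1-KO over WT, was 0.23 for members and -0.01 for all genes. Since the members move together across mice, these counts are not independent of one another. Without WT replicates 3 and 6, 26 of 36 members lay above WT, against 49.7% of all genes, and the median was 0.17. In no member did the genotypes' CPM ranges separate, against 0.0434% of all genes.

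The 3 members above WT at an unadjusted p of 0.05 were Plk2, Rgs2 and Nr4a3, on a side that held 3.61% of all genes. That count moved with single libraries: it was 14 without WT replicate 4 (4.3% of all genes), 11 without Fmr1-KO replicate 1 (3.44%) and 5 without Fmr1-KO replicate 8 (3.35%). It was 0 without Fmr1-KO replicate 3 (2.7%) or 6 (2.76%), and 0 without WT replicates 3 and 6 together (3.99%). It was 1 without Fmr1-KO replicate 5 (4.59%) or 7 (2.77%), or without WT replicate 2 (3.28%), 3 (3.8%), 5 (4.68%) or 8 (2.81%). It was also larger under other scalings and filters: 6 with library totals (3.64%), 9 without the filter (5.94%), 8 on log2(TPM + 1) (7.72%) and 7 on log2(TPM + 0.1) (6.32%). The 3 members below WT were Ier5, Klf10 and Atf3, against 4.28% of all genes, and they were the same 3 without WT replicates 3 and 6, where 3.33% of all genes lay on that side. Without WT replicate 2 they were Klf10 and Atf3 (4.42% of all genes). On the TPM scales, on which all genes shifted upwards, 0 members lay on that side (0.113% of all genes on log2(TPM + 1) and 0.0695% on log2(TPM + 0.1)).

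Among the transcription factors and regulators, 15 of 20 lay above WT with a class median of 0.14. Fos ranged from 218 to 643 CPM with a median of 403 CPM in Fmr1-KO, and from 216 to 711 CPM with a median of 285 CPM in WT. Its ranges overlapped almost fully, and the log2 fold change was 0.28 ± 0.24 (SE, edgeR adjusted p = 0.801). Egr1, a zinc-finger factor tied to memory consolidation, had its lowest, median and highest values at 709, 1230 and 1479 CPM in Fmr1-KO and 495, 904 and 1377 CPM in WT. For Egr1 the log2 fold change was 0.29 ± 0.17 (edgeR adjusted p = 0.672). The genotypes overlapped, and the lowest WT value was in the shallow replicate 3. Without WT replicates 3 and 6, WT ran from 885 to 1377 CPM, inside the Fmr1-KO range.

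Npas4 ran from 202 to 1029 CPM with a median of 635 CPM in Fmr1-KO and from 45.6 CPM, in the shallow replicate 3, to 1054 CPM with a median of 292 CPM in WT. It had the largest log2 fold change above 0 in the list, 0.79 ± 0.43 (edgeR unadjusted p = 0.0786, adjusted p = 0.666). In Fmr1-KO, 7 of 8 mice lay above the WT median, but the highest Npas4 level of all belonged to WT replicate 4. Nr4a3, an orphan nuclear receptor, ran from 182 to 421 CPM (median 311 CPM) in Fmr1-KO and from 181 to 331 CPM (median 238 CPM) in WT. Its log2 fold change was 0.30 ± 0.14 (edgeR unadjusted p = 0.0474, adjusted p = 0.628).

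Ier5, an immediate early gene linked to heat-shock factor activity, ran from 44.2 to 78.9 CPM (median 60.5 CPM) in Fmr1-KO and from 44.1 to 108 CPM (median 84.4 CPM) in WT. All 8 Fmr1-KO values were below the WT median, while WT replicates 4 and 5 were as low as the Fmr1-KO mice. The log2 fold change was -0.41 ± 0.16 (edgeR unadjusted p = 0.0161, adjusted p = 0.585). Klf10 ran from 21.2 to 36.4 CPM (median 28.2 CPM) in Fmr1-KO and from 32.5 to 70.8 CPM (median 38.6 CPM) in WT, its highest value being in the shallow WT replicate 3. Its log2 fold change was -0.52 ± 0.18 (edgeR unadjusted p = 0.00767, adjusted p = 0.569), and -0.38 without WT replicates 3 and 6. The ranges met only between 32.5 and 36.4 CPM.

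Atf3, a factor of the stress response, ran from 2.13 to 29.0 CPM (median 11.2 CPM) in Fmr1-KO and from 13.2 to 41.5 CPM (median 27.1 CPM) in WT. It had the largest difference in the list in either direction, a log2 fold change of -1.01 ± 0.36 (edgeR unadjusted p = 0.01, adjusted p = 0.572), on 5 to 98 counts per library. Of the other factors, Fosb (0.58), Egr4 (0.52), Egr3 (0.38), Junb (0.32), Nr4a1 (0.23), Nr4a2 (0.16), Jun (0.13), Ier2 (0.13), Fosl2 (0.09), Jund (0.07) and Egr2 (0.06) had log2 fold changes above 0, and Btg2 (-0.28) and Crem (-0.28) below it. Their edgeR adjusted p-values were 0.665 or more.

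**Figure D4:**
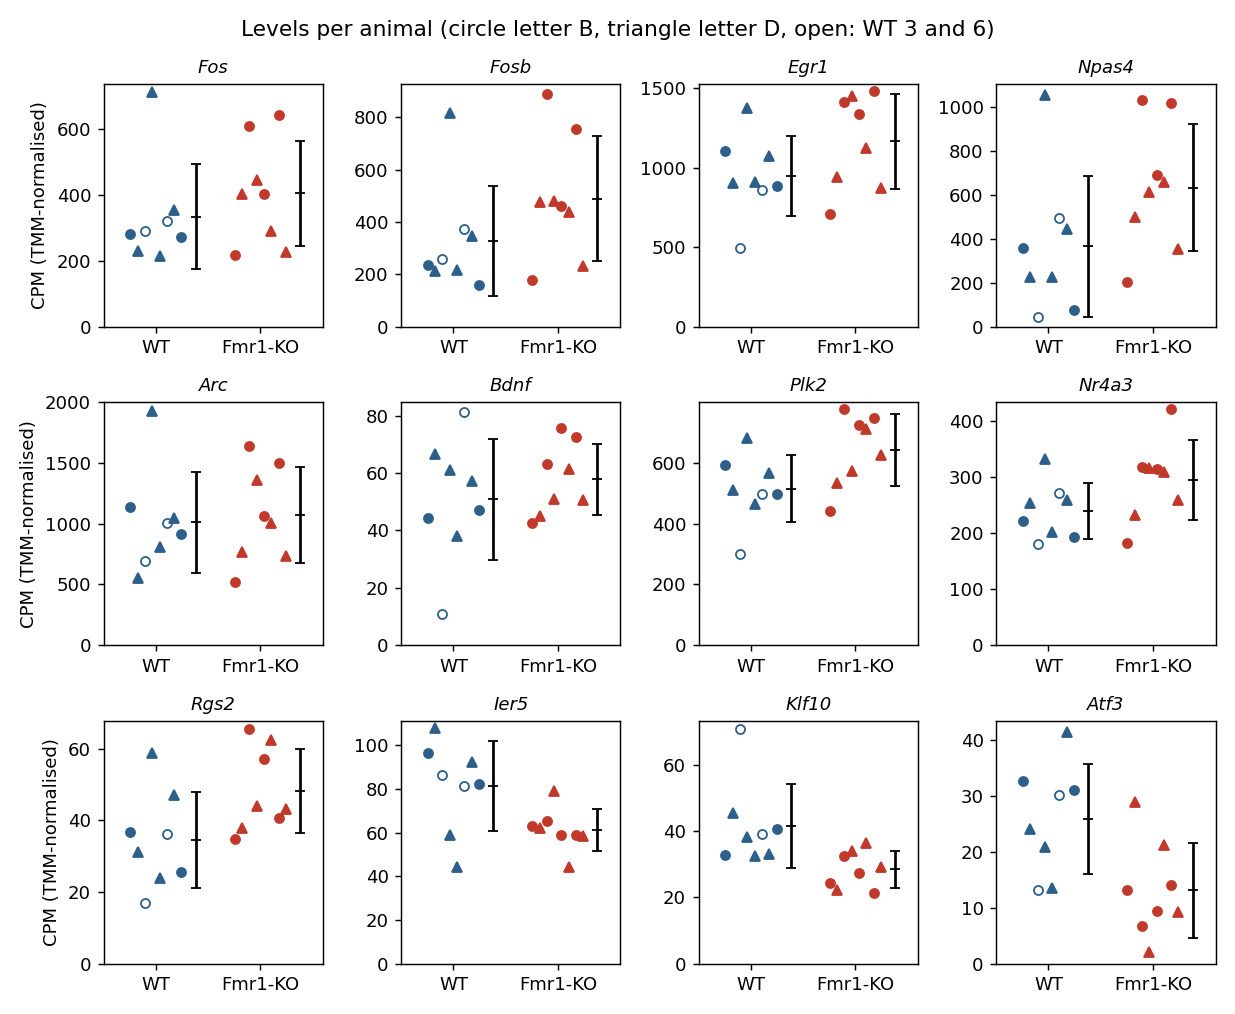
CPM of 12 members in each of 8 WT and 8 Fmr1-KO mice (circles letter B, triangles letter D, open symbols the shallow WT replicates 3 and 6), with mean and SD to the right of each group. The genotypes overlap in every panel. WT replicate 4 is the highest WT point for Fos at 711 CPM and Arc at 1930 CPM, and all Fmr1-KO points for Ier5 lie below the WT median of 84.4 CPM.

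Among the feedback genes, 8 of 10 lay above WT with a median of 0.25. Plk2, a kinase that takes part in homeostatic weakening of synapses, ran from 443 to 776 CPM (median 670 CPM) in Fmr1-KO and from 301 to 681 CPM (median 506 CPM) in WT. Its log2 fold change was 0.32 ± 0.13 (edgeR unadjusted p = 0.028, adjusted p = 0.617), and 0.22 without WT replicates 3 and 6. Rgs2, which limits G-protein signalling, ran from 34.7 to 65.4 CPM (median 43.6 CPM) in Fmr1-KO and from 16.8 to 58.7 CPM (median 33.7 CPM) in WT. All 8 Fmr1-KO values exceeded the WT median, and the log2 fold change was 0.47 ± 0.21 (edgeR unadjusted p = 0.036, adjusted p = 0.624).

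Trib1 ran from 25.8 to 78.2 CPM (median 64.6 CPM) in Fmr1-KO and from 13.2 to 87.5 CPM (median 34.5 CPM) in WT (log2 fold change 0.46 ± 0.27, edgeR adjusted p = 0.675). Dusp6, a MAP kinase phosphatase, ran from 160 to 368 CPM (median 327 CPM) in Fmr1-KO and from 165 to 365 CPM (median 242 CPM) in WT (0.24 ± 0.15, edgeR adjusted p = 0.714). For Dusp6 the ranges of the genotypes nearly coincided, and for Trib1 the WT range enclosed that of Fmr1-KO. Gadd45g (0.35), Gadd45b (0.27), Dusp1 (0.20) and Plk3 (0.11) also had log2 fold changes above 0, and Dusp5 (-0.08) and Sik1 (-0.33) below it, with edgeR adjusted p-values of 0.721 or more.

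All 5 effectors tested lay above WT, with a median of 0.30, and none had an unadjusted p under 0.05. Arc ran from 521 to 1638 CPM (median 1034 CPM) in Fmr1-KO and from 550 to 1930 CPM (median 957 CPM) in WT. Its mRNA is a known binding target of FMRP, and its log2 fold change was 0.09 ± 0.23 (edgeR adjusted p = 0.948). Bdnf ran from 42.7 to 75.8 CPM (median 56.0 CPM) in Fmr1-KO and from 10.8 to 81.2 CPM (median 52.2 CPM) in WT (0.21 ± 0.22, edgeR adjusted p = 0.844). Both extremes of Bdnf in WT came from the shallow libraries, replicates 3 and 6.

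Nptx2 ran from 68.7 to 138 CPM (median 108 CPM) in Fmr1-KO and from 48.1 to 142 CPM (median 73.0 CPM) in WT (0.30 ± 0.18, edgeR adjusted p = 0.681). Arl4d ran from 11.3 to 48.1 CPM (median 28.1 CPM) in Fmr1-KO and from 3.60 to 37.0 CPM (median 18.3 CPM) in WT (0.55 ± 0.33, edgeR adjusted p = 0.681). Ptgs2 ran from 16.9 to 32.6 CPM (median 20.3 CPM) in Fmr1-KO and from 2.40 to 29.5 CPM (median 17.2 CPM) in WT (0.33 ± 0.29, edgeR adjusted p = 0.808). In all 3 the genotypes overlapped, and the lowest value of Arl4d and of Ptgs2 was in WT replicate 3. Inhba had too few counts to be tested, with 0 to 10.7 CPM in Fmr1-KO and 0 to 8.20 CPM in WT.

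**Figure D5:**
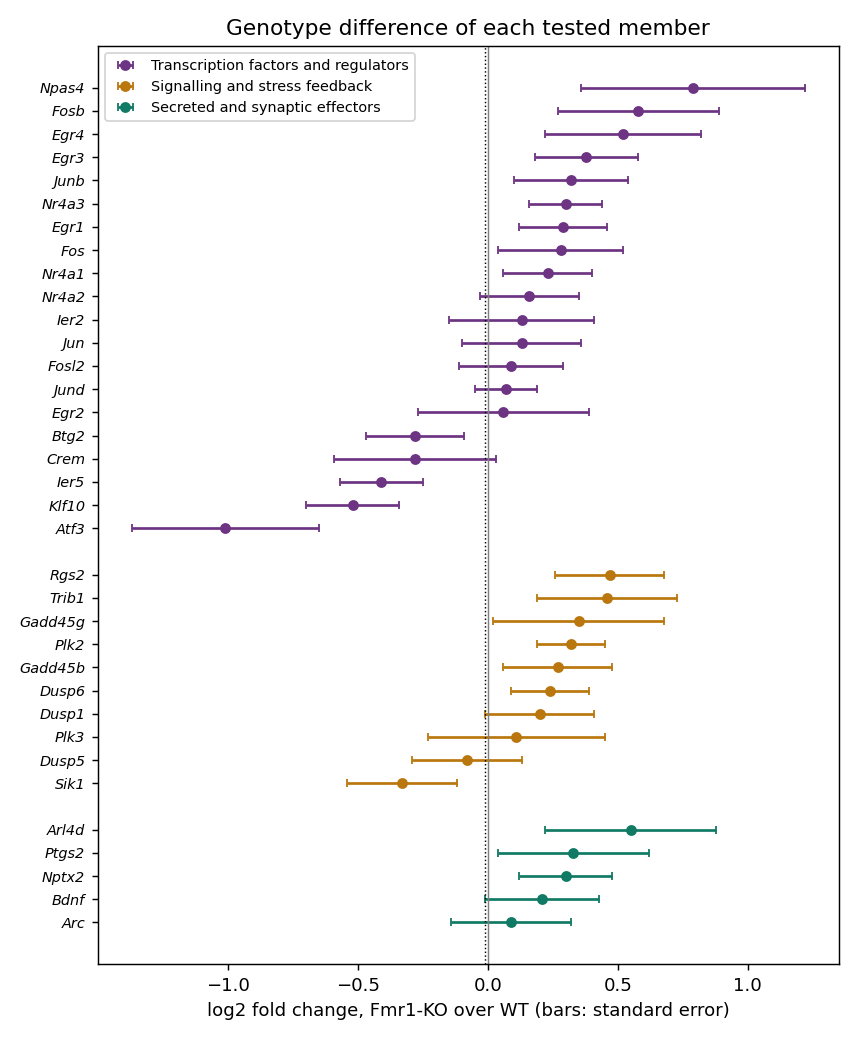
Log2 fold change, Fmr1-KO over WT, of the 35 tested members by role (horizontal axis; bars are standard errors; the dotted line is the median of all genes tested, -0.01). Most points lie to the right of 0, from 0.79 for Npas4 down to -1.01 for Atf3, and none passed the adjusted test.

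Of the upstream genes, 20 of 30 lay above WT with a median of 0.04, and 0 passed. Among those with the smallest p-values was Mkl1, a coactivator of serum response factor (146 ± 18.2 CPM, SD, in the 8 Fmr1-KO mice against 115 ± 21.4 CPM in the 8 WT mice; log2 fold change 0.33 ± 0.12, edgeR adjusted p = 0.572). The calcineurin subunits Ppp3r1 (0.18) and Ppp3ca (0.15) followed. Of the other activity-regulated genes, 10 of 16 tested lay above WT, with 0 passing. Nrn1, a secreted neuritin, had the smallest p (79.3 ± 18.4 and 97.4 ± 16.8 CPM; -0.30 ± 0.14, edgeR adjusted p = 0.628), and Fbxo33 (0.43), Tiparp (0.52) and Homer1 (0.26) followed.

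Letters were compared next, D over B with genotype in the model. edgeR called 0 of 35 members and 0 genes in all (0.0%), and so did DESeq2 (0.0%). At an unadjusted p of 0.05, 1 member differed, against 4.21% of all genes, and the members' median log2 fold change was 0.04, with 19 of 35 above 0, against 48.6% of all genes. The majority direction turned with single libraries and with scaling. It was 9 of 35 without WT replicate 4 (48.8% of all genes), 12 without Fmr1-KO replicate 1 (49.0%), 14 without WT replicate 3 (48.8%), 15 without WT replicate 8 (50.1%) and 28 without Fmr1-KO replicate 3 (48.4%). It was 16 of 36 without WT replicates 3 and 6, and with the animal number as a block 14 of 35 (53.4%). With library totals in place of TMM scaling, 29 of 35 lay above 0, against 57.2% of all genes, and on log2(TPM + 1) 34, against 86.9%. The 1 member was Gadd45b, a regulator of DNA demethylation. In Fmr1-KO it was 31.0, 28.2, 39.5 and 27.3 CPM under letter B and 29.0, 26.0, 20.1 and 23.8 CPM under letter D, and in WT 41.1, 25.2, 24.1 and 20.8 CPM under B and 21.7, 25.4, 13.5 and 15.2 CPM under D. The letters overlapped in both genotypes, and the log2 fold change was -0.46 ± 0.19 (edgeR unadjusted p = 0.0265, adjusted p = 0.956). With the animal number as a block, Jund and Sik1 differed at that p in place of Gadd45b, 2 of 35 members against 2.35% of all genes. Without the filter it was Npas4 alone (7.84% of all genes), and with library totals no member (4.11% of all genes).

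The other members with the smallest p-values for the letter overlapped as widely. Jund ran from 195 to 341 CPM (median 275 CPM) under B and from 179 to 292 CPM (median 245 CPM) under D (log2 fold change -0.20, edgeR adjusted p = 0.956). Sik1 ran from 37.4 to 87.3 CPM (median 43.8 CPM) under B and from 21.7 to 56.0 CPM (median 43.4 CPM) under D (-0.27, edgeR adjusted p = 0.956). For Nr4a2 the letters spanned 76.8 to 263 CPM (median 174 CPM, B) and 119 to 247 CPM (median 181 CPM, D), and the log2 fold change was 0.16. Neither letter stood apart in these genes. Ptgs2 (0.26), Rgs2 (0.18), Btg2 (0.13), Nptx2 (0.05) and Arc (-0.04) had edgeR adjusted p-values of 0.959 or more.

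Whether the genotype difference depended on the letter was tested as an interaction, with 4 mice in each cell. edgeR called 0 of 36 members and 0 genes (0.0%), DESeq2 called 0, and no member had an unadjusted p under 0.05 in either tool, against 5.59% of all genes in edgeR and 6.56% in DESeq2. The members' median interaction was -0.52 on the log2 scale, with 27 of 36 below 0, against -0.01 for all genes, of which 49.4% lay above 0. That is, Fmr1-KO minus WT was lower under D than under B for most members. The smallest p belonged to Fosb, which encodes an AP-1 subunit. Under B it was 180, 890, 460 and 757 CPM in Fmr1-KO and 237, 258, 373 and 158 CPM in WT, and under D 478, 479, 437 and 230 CPM in Fmr1-KO and 214, 818, 218 and 348 CPM in WT. Its interaction was -1.20 ± 0.59 (edgeR unadjusted p = 0.0565, adjusted p = 0.882), and the high values were Fmr1-KO replicates 3 and 7 under B and WT replicate 4 under D.

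Dusp1 (-0.83 ± 0.41), Dusp5 (-0.78 ± 0.41) and Npas4 (-1.56 ± 0.82) came next, each with an edgeR adjusted p of 0.882. Both shallow libraries are WT mice of letter B, and without them 5 members had an unadjusted p under 0.05 (Fosb, Jun, Npas4, Dusp1 and Plk3), against 5.23% of all genes, and 0 passed adjustment. With library totals 5 members had an unadjusted p under 0.05 (Fos, Fosb, Egr4, Npas4 and Dusp1), against 5.23% of all genes, and 0 passed adjustment. Leaving out single libraries gave between 0 and 12 such members. The 12 came without Fmr1-KO replicate 1 (5.24% of all genes), and 6 came without WT replicate 2 (5.86%). There were 5 without Fmr1-KO replicate 4 (5.01%) or without WT replicate 1 (7.52%), 5 (4.85%) or 6 (5.79%), and 1 without Fmr1-KO replicate 5 (7.88%) or WT replicate 3 (5.1%).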

How the data were processed

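RNA from CA1 of 8 Fmr1-KO and 8 WT mice was sequenced. The deposited tables give estimated counts and TPM per transcript for each library, made by the authors with kallisto, per the submitters' processing notes, which also name FastQC, cutadapt and DESeq2. Tool versions, genome build and annotation were not given in the sources used here. Counts with multi-mapping reads shared out are estimates, so transcripts of near-identical sequence cannot be separated.

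Here the deposited estimated counts were summed by gene symbol and rounded to whole numbers, and the deposited TPM values summed by symbol. Genes were tested with edgeR 4.0.16 in R 4.3.3 (TMM scaling, filterByExpr with a minimum count of 10, quasi-likelihood test, Benjamini-Hochberg adjustment over all genes tested). CPM values are TMM-normalised. The filter kept 11515 of 46403 symbols and 35 of 36 members. Genotype was fitted alone, the letter with genotype, and the interaction with both. Correlations used log2 CPM (prior count 2) with genotype means subtracted. The correlation background covered all pairs of genes, in place of the sample of pairs first planned. The scripts were tested on simulated data.

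All members are named. Full values are given for the 4 members of each role class with the smallest genotype p, the 3 with the smallest letter p, and Fos, Egr1, Npas4, Arc and Bdnf; for some letter genes the range and test alone are given. The members, role classes, pathway and marker lists were chosen with earlier results of these data known. Alternatives were DESeq2 1.42.0, other scalings and filters, limma 3.58.1 on log2(TPM + 1) and log2(TPM + 0.1), leaving out WT replicates 3 and 6, each library in turn, and the animal number as a block. Correlations with Arc were also adjusted over all genes tested. This, and following single genes for the letter and the interaction under the alternatives, were added after the data were seen. Depth limits precision for members with few counts, such as Inhba, Crem and Atf3. An upstream gene of the pathway list is not reported here by name.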

Additional observations from a re-analysis of the deposited data

Results flagged for a closer look

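Each member was checked in each genotype for a highest or lowest mouse whose gap to the next, divided by the group's range, exceeded Dixon's 95% critical value for 8 samples, 0.526. Of 72 such groups 13 met it, all at the highest mouse. The critical value gives about 1 in 20 groups only for normally distributed values, and CPM was used here without logs. An excess over chance therefore cannot be read from this count. The members are also correlated, so their groups are not independent. In 8 of the 13 the outlying mouse was WT replicate 4, which was highest in WT. Its levels, with the next highest WT value, were 711 against 353 CPM for Fos, 818 against 373 CPM for Fosb and 606 against 369 CPM for Junb. They were 193 against 77.2 CPM for Egr2 and 714 against 349 CPM for Egr4. For Arc they were 1930 against 1134 CPM, and for Dusp6 365 against 256 CPM. Npas4 stood at 1054 CPM in its highest library, with every other WT library lower. The other 5 came from different mice. Ptgs2 was 32.6 CPM in Fmr1-KO replicate 3 against 21.6 CPM, and Gadd45b was 41.1 CPM in WT replicate 1 against 25.4 CPM. Klf10 was 70.8 CPM in the shallow WT replicate 3 against 45.4 CPM. Crem was 22.3 CPM in Fmr1-KO replicate 2 against 12.1 CPM, and Inhba was 10.7 CPM in Fmr1-KO replicate 4 against 3.59 CPM.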

How the results depend on the processing

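No member was called for genotype, letter or interaction under any alternative run. Genes called for genotype numbered 2, with 11 by DESeq2, 5 without the filter, 0 on either TPM scale and 2 to 3 leaving out single libraries; for the letter they numbered 0, with 101 without the filter. The members' median genotype log2 fold change was 0.16 to 0.35 leaving out single libraries, and that for the letter -0.09 to 0.11. On TPM scales the median of all genes shifted by 0.55 and 0.62 for genotype (0.33 and 0.40 for the letter). Relative to that shift, Fosl2 (-0.01 and -0.06), Nr4a2 (-0.41 and -0.48) and Dusp5 (0.05 and 0.02) changed sign. Without WT replicates 3 and 6, Egr2 (-0.01) and Ier2 (-0.02) did so for genotype and Nptx2 (-0.08) for the letter, as did Nptx2 under the block (-0.03) and Arc with library totals (0.03). Leaving out single libraries, the sign changed for Egr2 (-0.10 to 0.48), Arc (-0.02 to 0.29), Fosl2 (-0.03 to 0.21), Ier2 (-0.02 to 0.25), Plk3 (-0.04 to 0.22) and Dusp5 (-0.20 to 0.04) for genotype, and for Arc (-0.26 to 0.07) and Nptx2 (-0.08 to 0.15) for the letter. Members correlated with Arc numbered 18 to 22 leaving out single libraries and 33 on log2(TPM + 1), where 81.4% of all genes passed with r above 0. The median pairwise r was 0.37 to 0.47, with 0.50 without WT replicates 3 and 6, 0.49 with library totals and 0.82 on log2(TPM + 1). Members above the dispersion trend numbered 26 without WT replicate 3 (28.3% of all genes) to 32 without WT replicate 6 (34.4%). The cause of these changes was not tested.

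For libraries that share an animal number, log2 CPM was taken as each gene's deviation from its mean in that genotype and letter. These deviations correlated at -0.038 to 0.174 over all genes and at -0.291 to 0.143 over members (6 pairs). Libraries with different numbers were not compared in this way. The numbers were not taken as pairing. No paired analysis was possible for genotype because the genotypes share no numbers. With the number as a replicate block, the letter contrast called 0 members and 0 genes, and the members' median was -0.06. Depth limits what can be seen in the lowest members.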
